A study of Mus musculus with 4 samples.

Results

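Macro_Mgl2 is 1 of 23 cell type names that the submitters gave to CD45+ cells of mouse breast tumours, and it is described here as a population of cycling macrophages. Its cells were taken by name: a barcode was used when its deposited name was Macro_Mgl2 and it had a column in the count table, which left 327 cells of 16383. Barcodes end in a suffix, and 256 of these cells had suffix 1 and 71 had suffix 2. The 2 suffixes are given apart throughout.

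The tumours came from Mif-depleted and from wild-type 4T1 cells, a mouse mammary carcinoma line, grown in BALB/c mice. Each of the 2 groups had 2 samples, and 3 tumours were dissociated for a sample, so animals were pooled. Dead cells were removed, CD45-positive and propidium iodide-negative cells were sorted, and 10x Genomics libraries were made from them. Neither the labels nor the file headers tie a suffix to a sample, so Mif-depleted and wild-type tumours could not be compared and no p-value is given. Each name was set against other names within a suffix, with exact 95% intervals. These cover counting error only, since cells of 1 suffix are not replicates.

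Most tissue macrophages are quiescent, but those of tumours can divide locally as well as being replaced by blood monocytes. A dividing cell first copies its DNA in S phase with licensing and polymerase factors driven largely by E2F. Later, in G2 and mitosis, it makes cyclins, kinases, kinetochore and spindle proteins through complexes that contain MuvB. Promoters of the mitotic class commonly carry a CHR element near the start, with CCAAT boxes upstream. Ube2c, the ubiquitin-conjugating enzyme that works with the anaphase-promoting complex, Tpx2, an activator of Aurora A on the spindle, Nusap1, which bundles spindle microtubules, and Stmn1, which destabilises microtubules, are the markers of this population.

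The promoters of 5 genes are printed as examples from the mitotic and replication gene groups described further on, 4 with matches to the motifs searched and 1 without. Each runs from 250 bases before to 50 bases after the start, on the gene's own strand, from RefSeq on GRCm38.p6. Ube2c lies at chr2:164769679-164769978 on the plus strand, Cdc20 at chr4:118437294-118437593 on the minus strand, Cenpf at chr1:189688037-189688336 on the minus strand, Nusap1 at chr2:119618048-119618347 on the plus strand and Mcm6 at chr1:128359656-128359955 on the minus strand. Capitals mark every match, on either strand, to 3 motifs. CHR was searched as TTTGAA and as TTCGAA. The CCAAT box was searched as CCAAT, and 2 of its matches in Ube2c overlap. The E2F site was searched as TTTCCCGC and as TTTGGCGC.
Ube2c: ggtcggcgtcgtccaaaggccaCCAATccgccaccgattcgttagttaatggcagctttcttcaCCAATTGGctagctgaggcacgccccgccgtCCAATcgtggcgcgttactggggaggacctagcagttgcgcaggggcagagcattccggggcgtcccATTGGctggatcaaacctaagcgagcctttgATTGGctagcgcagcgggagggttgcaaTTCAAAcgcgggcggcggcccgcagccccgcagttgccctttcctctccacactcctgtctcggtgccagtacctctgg
Cdc20: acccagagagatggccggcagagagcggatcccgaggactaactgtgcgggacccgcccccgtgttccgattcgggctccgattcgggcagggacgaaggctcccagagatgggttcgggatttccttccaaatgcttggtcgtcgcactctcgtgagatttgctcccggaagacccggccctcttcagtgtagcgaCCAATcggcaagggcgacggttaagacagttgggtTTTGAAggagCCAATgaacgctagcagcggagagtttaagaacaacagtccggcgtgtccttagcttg
Cenpf: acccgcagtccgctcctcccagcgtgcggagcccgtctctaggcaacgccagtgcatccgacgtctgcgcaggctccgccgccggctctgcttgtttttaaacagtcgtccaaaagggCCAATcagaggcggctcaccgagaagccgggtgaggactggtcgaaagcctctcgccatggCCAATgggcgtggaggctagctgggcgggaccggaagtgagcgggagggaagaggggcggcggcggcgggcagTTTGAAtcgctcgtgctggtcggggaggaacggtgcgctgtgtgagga
Nusap1: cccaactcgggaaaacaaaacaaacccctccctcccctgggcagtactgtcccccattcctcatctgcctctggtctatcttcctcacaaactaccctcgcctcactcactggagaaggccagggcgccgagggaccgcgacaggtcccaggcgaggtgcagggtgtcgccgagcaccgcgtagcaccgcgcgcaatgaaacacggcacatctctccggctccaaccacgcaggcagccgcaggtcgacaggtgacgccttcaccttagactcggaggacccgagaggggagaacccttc
Mcm6: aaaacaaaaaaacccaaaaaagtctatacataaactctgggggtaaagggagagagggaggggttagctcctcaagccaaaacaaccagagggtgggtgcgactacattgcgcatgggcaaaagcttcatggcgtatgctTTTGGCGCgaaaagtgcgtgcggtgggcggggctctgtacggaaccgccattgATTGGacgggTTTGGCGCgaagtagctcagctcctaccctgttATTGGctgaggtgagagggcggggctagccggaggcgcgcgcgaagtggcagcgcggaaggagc
Ube2c held 6 CCAAT matches and 1 CHR match whose first base lay at -29 from the start. Cdc20, the activator of the anaphase-promoting complex, had its CHR match at -18, and Cenpf, a kinetochore protein, had its own at 2. The Mcm6 window, of a subunit of the replicative helicase, held 2 E2F matches, at -110 and -47, and no CHR match. The Nusap1 window held none of the 3 motifs. Tpx2, Stmn1 and Ccna2 are named without a promoter.

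The table held 4099 complete genes of chromosomes 1 to 4 and part of chromosome 5, so a cell's UMI total is its total over these genes and not its depth. Over all names suffix 1 held 29567302 UMIs with a median of 1224.5 per cell, and suffix 2 held 8578852 with a median of 1712. Macro_Mgl2 cells held more UMIs than the cells of most other names. Their median was 6227 UMIs in suffix 1, the highest of 23 names, against 3652 in Macro_Maf, 3457 in Macro_Vegfa and 423 in Macro_Ccl12. In suffix 2 their median was 5630, the second highest. Single cells of suffix 1 ranged between 407 and 22285 UMIs. No cell was removed as a doublet, and no doublet caller was run. Of the barcode sequences, 12 were shared between all cells of the 2 suffixes and 0 among Macro_Mgl2 cells.

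The 4 markers stood highest in Macro_Mgl2 in nearly every ranking, so the label held for them. Levels are UMIs of a gene per 10000 UMIs counted, summed over the cells of a name. Ube2c had 12.1 UMIs per 10000 in Macro_Mgl2 of suffix 1 and 12.5 in suffix 2, against 0.701 and 0.553 in the pooled cells named Macro_Maf, Macro_Vegfa and Macro_Ccl12, the 3 macrophage names used for comparison. Tpx2 had 5.66 and 5.67 in Macro_Mgl2, against 0.325 and 0.293 in the pooled names. Nusap1 had 5.41 and 5.29 in Macro_Mgl2, against 0.174 and 0.157. Stmn1 had 23.9 and 21.3 in Macro_Mgl2, against 4.55 and 3.19. In log2 the ratio over the pooled names was 4.96 for Nusap1 (95% interval 4.68 to 5.26), 4.12 for Tpx2 (3.90 to 4.34), 4.11 for Ube2c (3.97 to 4.26) and 2.39 for Stmn1 (2.32 to 2.46) in suffix 1. Macro_Mgl2 was first of all names for Tpx2, Nusap1 and Ube2c in both suffixes. For Stmn1 it was first in suffix 1, ahead of CD8_Tex cells at 16.8, but in suffix 2 B_cell at 21.8, Macro_Mgl2 at 21.3 and CD8_Tex at 21.1 had overlapping intervals at this scale, while as UMIs per cell Macro_Mgl2 was first at 14.4. By GENCODE M21 on GRCm38, Ube2c spans 164769898 to 164778822, Tpx2 spans 152847964 to 152895321 and Nusap1 spans 119618298 to 119651244, all on the plus strand of chromosome 2, and Stmn1 spans 134468320 to 134473843 on the plus strand of chromosome 4. The names were taken from the submitters and these genes mark the name, so the differences describe the name and test nothing.

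**Figure D1:**
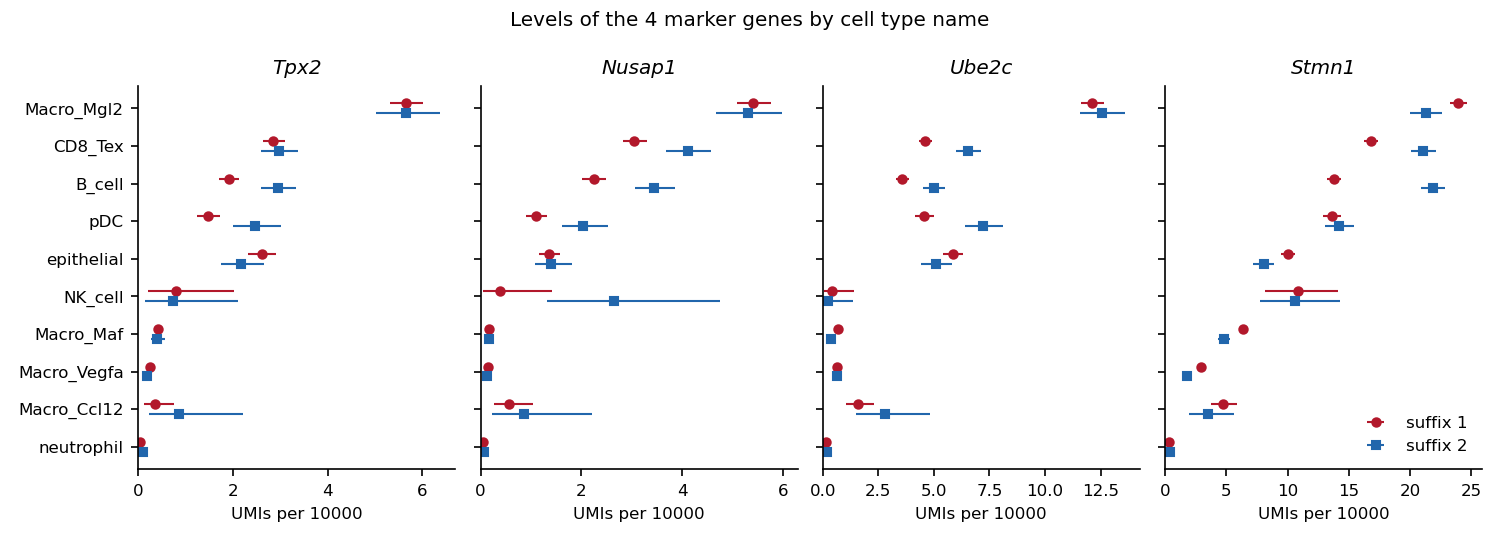
Levels of Tpx2, Nusap1, Ube2c and Stmn1 in UMIs per 10000 (x axes), for Macro_Mgl2 and 9 other names, with red circles for suffix 1, blue squares for suffix 2 and bars for exact Poisson 95% intervals of counting error. Macro_Mgl2 is rightmost in every panel except for Stmn1 in suffix 2, where B_cell, at 21.8, and CD8_Tex, at 21.1, lie level with its 21.3.

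The markers were carried by most cells and not by a few. In suffix 1 a Ube2c UMI was found in 92.2% of Macro_Mgl2 cells, 17.8% of Macro_Maf cells and 1.72% of neutrophils, which do not divide and have median totals of 1120 UMIs. After each cell was thinned at random to 1000 UMIs, which left out 3 Macro_Mgl2 cells, 34 Macro_Maf cells and 2553 neutrophils, the shares were 58.5%, 7.40% and 0.886%. A Stmn1 UMI was found in 100% of the Macro_Mgl2 cells, against 50.6% of Macro_Maf cells, and in 85.4% of thinned Macro_Mgl2 cells, against 28.9% of thinned Macro_Maf cells. The spread within the name was wide all the same: between single Macro_Mgl2 cells Ube2c ranged between 0 and 70.4 UMIs per 10000, with a median of 8.23. Mgl2 and Birc5 were not analysed here.

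Relative to the 3 pooled macrophage names, the genes higher in Macro_Mgl2 were mostly genes of the cell cycle. A gene with 50 or more UMIs over both sides was called higher or lower when the 95% interval of its ratio lay beyond 2-fold. In suffix 1, 103 of 2854 genes were higher in Macro_Mgl2 (3.61%) and 12 were lower (0.42%), and 68 of the 103 were on 1 of 6 cell cycle lists. In suffix 2, 76 of 2315 were higher (3.28%) and 16 lower (0.691%). Of the 103 genes, 101 had a ratio above 1 in suffix 2 too, and 65 of the 70 with enough UMIs there were called again. Against single names in suffix 1, 86 genes were higher in Macro_Mgl2 than in Macro_Maf (3.25%), 122 than in Macro_Vegfa (4.58%) and 60 than in Macro_Ccl12 (2.69%), and 11 (0.415%), 19 (0.713%) and 46 (2.06%) were lower. Against all other cells of the suffix, 137 of 3514 genes were higher in Macro_Mgl2 (3.9%) and 205 lower (5.83%) in suffix 1, and 71 of 3087 higher (2.3%) and 118 lower (3.82%) in suffix 2.

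Cyclins, mitotic kinases, the spindle checkpoint and the anaphase-promoting complex made up the most uniform group. All 14 measured members were higher in Macro_Mgl2, with a median log2 ratio of 3.45 beside -0.09 over all genes, and their summed level was 49.7 UMIs per 10000, against 5.53 in the pooled names. Ccna2, cyclin A2, had 4.51 and 4.81 UMIs per 10000 in Macro_Mgl2 of suffix 1 and suffix 2, against 0.242 and 0.184. Cdc20 had 2.80 and 3.04 in Macro_Mgl2, against 0.200 and 0.103, a log2 ratio of 3.80 (3.52 to 4.10) in suffix 1. Bub1 and Bub1b, 2 checkpoint kinase-family proteins, each had a log2 ratio of 3.45, and Aurka, the Aurora A kinase, had 3.04. Nek2, a centrosome kinase, reached 4.11 and Melk 4.02, while Cks1b, a subunit of cyclin-dependent kinases, was the most abundant after Ube2c at 10.8 UMIs per 10000, against 2.28, with 2.24. In suffix 2 the 3.04 Cdc20 UMIs per 10000 in Macro_Mgl2 had an interval that overlapped that of the 3.40 in cells named pDC, and as UMIs per cell the levels were 2.06 in Macro_Mgl2 and 1.71 in pDC.

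Spindle, kinesin and cytokinesis genes followed the same pattern. All 19 were higher in Macro_Mgl2, at a summed 66.8 UMIs per 10000 against 12.1. Depdc1a had the largest ratio among the genes called in suffix 1, with 0.930 UMIs per 10000 against 0.0281 and a log2 ratio of 5.05 (4.34 to 5.84). Aspm, a spindle pole protein, had a log2 ratio of 4.89 (4.27 to 5.56), and Kif14, a kinesin of cytokinesis, 4.24 (3.48 to 5.08). Of 12 centromere and kinetochore genes, 11 were higher. Cenpf had 4.58 and 5.27 UMIs per 10000 in Macro_Mgl2 of suffix 1 and suffix 2, against 0.189 and 0.238, and Cenpe, the kinetochore kinesin, had 4.30 and 4.21, against 0.261 and 0.184. Cenpa, the centromeric histone H3, was more abundant at 10.8 against 3.20, a log2 ratio of 1.75. Pmf1, a Mis12 complex subunit, was the 1 member not called, with a log2 ratio of 1.00 (0.84 to 1.16). Over the 3 mitotic lists together Macro_Mgl2 held 149 UMIs per 10000 in suffix 1 and 151 in suffix 2, first of 23 names in both. The next names were epithelial cells at 93.6 in suffix 1 and B_cell at 106 in suffix 2.

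DNA replication genes separated Macro_Mgl2 from other macrophages less sharply. Of 29 measured, 12 were higher and 0 lower in suffix 1, and 28 of the 29 had a ratio above 1. Their summed level was 60.7 UMIs per 10000, against 30.4 in the pooled names, and 57.8 against 27.0 in suffix 2. Among names Macro_Mgl2 lay behind CD8_Tex at 73.0 and B_cell at 67.7 in suffix 1, and behind 3 names, led by CD8_Tex at 82.8, in suffix 2, where NK_cell at 57.9 overlapped it. The rank depends on the scale: as UMIs per cell Macro_Mgl2 was first in both suffixes, at 43.1 against 29.9 in CD8_Tex of suffix 1 and at 39.1 against 24.6 in CD8_Tex of suffix 2. The called members were mostly repair, checkpoint and late regulators. Bard1, the partner of Brca1, had a log2 ratio of 2.69 (2.23 to 3.15), Clspn, a replication checkpoint adaptor, 2.18, and Mybl2, a subunit of the MuvB complex of proliferating cells, 2.15. The thymidylate synthase Tyms had 4.22 and 3.94 UMIs per 10000 in Macro_Mgl2 of suffix 1 and suffix 2, against 1.02 and 0.791. The core fork proteins differed little from the pooled names at UMIs per 10000. Pcna, the polymerase clamp, had 11.0 and 11.6 in Macro_Mgl2, against 6.91 and 7.08, a log2 ratio of 0.67 (0.60 to 0.75) in suffix 1. Mcm6 had a log2 ratio of 0.58 and Mcm3 of 0.80, both short of the 2-fold limit, and E2f1 had -0.01 (-0.30 to 0.27). The pooled names were unlike each other. In suffix 1 Mcm6 had 2.06 UMIs per 10000 in Macro_Mgl2, 2.23 in Macro_Maf and 0.661 in Macro_Vegfa, and Mcm3 had 2.91, 2.64 and 0.835. As UMIs per cell the log2 ratios over the pooled names were 1.62 for Pcna, 1.53 for Mcm6, 1.75 for Mcm3 and 0.94 for E2f1.

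The promoter windows divided along the same line. CHR was found in 28 of 41 promoters of the 3 mitotic lists (68.3%), in 5 of 23 of the replication list (21.7%), in 17.6% of the genes compared and in 21.7% of all 27025 promoters of the table. CHR and CCAAT together were in 61.0% of mitotic, 8.70% of replication and 8.61% of all promoters. E2F matches ran the other way, at 9.76% of mitotic, 34.8% of replication and 1.80% of all promoters. CCAAT alone was in 75.6%, 65.2% and 41.1%. Promoters were found for 41 of 45 mitotic and 23 of 29 replication genes. A match is a run of letters in these windows and shows no binding.

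**Figure D2:**
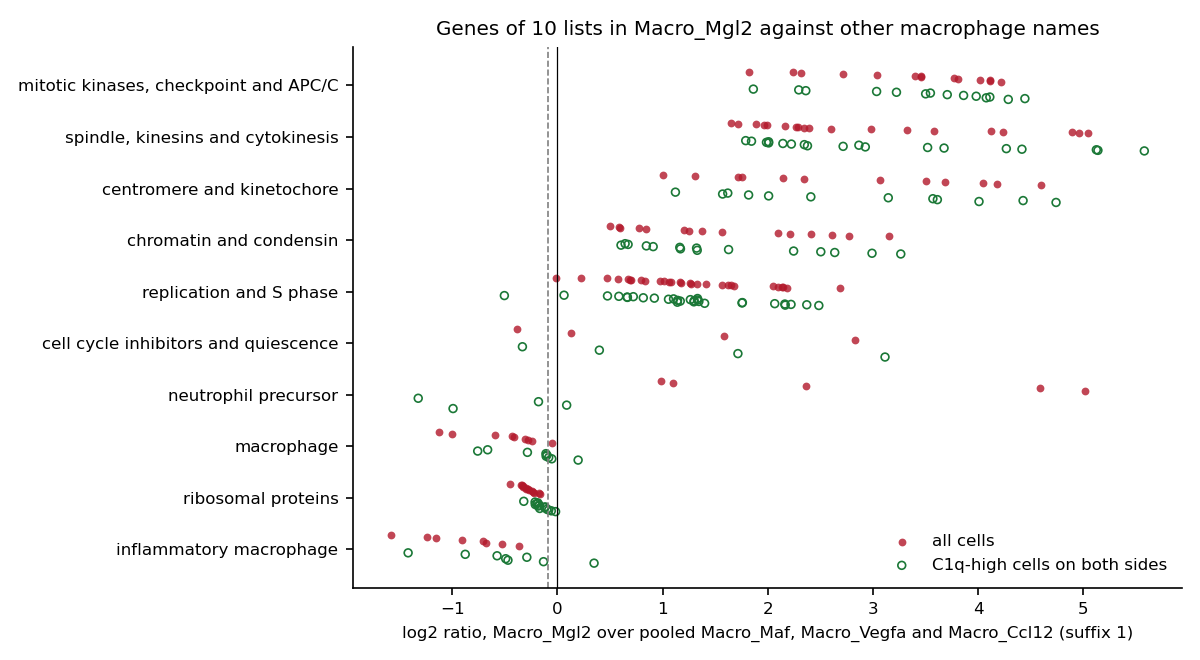
log2 ratio of each gene of 10 lists in Macro_Mgl2 over pooled Macro_Maf, Macro_Vegfa and Macro_Ccl12 in suffix 1 (x axis), for all cells (red) and for C1q-high cells on both sides (open green). The dashed line marks the median over all genes, -0.09; mitotic genes lie at or right of 1.00, replication genes between -0.01 and 2.69, and the neutrophil precursor genes move left of 0.1 among C1q-high cells. Counted as UMIs per cell the median is 0.86, and the summed levels of the ribosomal, macrophage and inflammatory lists turn to above the pooled names.

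Chromatin genes included the most abundant transcripts of the cell cycle lists. Of 15, 10 were higher in each suffix, and all 15 had a ratio above 1. H2afz, the histone variant H2A.Z, had 115 and 105 UMIs per 10000 in Macro_Mgl2 of suffix 1 and suffix 2, against 49.8 and 40.6. Smc2 and Smc4, the core ATPases of condensin, had log2 ratios of 2.61 and 2.21. The replication-type histone genes Hist2h2bb and Hist2h2ac had 3.15 and 2.77, from 121 and 206 UMIs. Ptma, prothymosin alpha, was the most abundant at 201 against 134, with a log2 ratio of 0.59 that did not reach the limit.

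Of 6 measured cell cycle inhibitors and quiescence genes, 5 had a ratio above 1 in each suffix, and Btg2 was the exception. All 6 were above 1 as UMIs per cell in suffix 1, while the summed UMIs per 10000 had a log2 ratio of -0.18. Cdkn2c, the CDK4 and CDK6 inhibitor p18, had 2.03 and 2.08 UMIs per 10000 in Macro_Mgl2 of suffix 1 and suffix 2, against 0.285 and 0.309, a log2 ratio of 2.83 (2.57 to 3.09). Rbl1, the pocket protein p107, had 1.59 (1.34 to 1.84). Btg2, an antiproliferative gene, had 18.9 UMIs per 10000 against 24.7, a log2 ratio of -0.39 that was not called. Macro_Mgl2 held less Cdkn2c than epithelial cells at UMIs per 10000 of suffix 1, at 2.03 against 5.68, but not as UMIs per cell, at 1.44 against 1.38. In suffix 2 it held less on both scales, at 2.08 against 7.11 UMIs per 10000 and 1.41 against 2.92 UMIs per cell.

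Growth and metabolism genes did not separate the names. No member was called in suffix 1 among 9 nucleotide synthesis genes, 12 nucleolar genes, 14 ribosomal proteins, 14 proteasome and chaperonin genes, 4 glycolysis genes or 18 oxidative phosphorylation genes. Their median log2 ratios were 0.10, 0.09, -0.29, 0.10, -0.58 and 0.00. These values depend on the scale, since Macro_Mgl2 cells held more UMIs: counted per cell, the median over all genes was 0.86 in place of -0.09, and the summed ribosomal protein level had a log2 ratio of 0.67 in place of -0.27.

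The genes lower in Macro_Mgl2 of suffix 1 were 12, and 0 of them was on a cell cycle list. All 12 had a ratio below 1 in suffix 2 too, and 8 of the 11 with enough UMIs there were called again. On the UMIs per cell scale the 12 ratios stayed below 1 but none was called. Fabp4, a fatty acid carrier, had 0.0275 UMIs per 10000 in Macro_Mgl2 of suffix 1, 5 UMIs in all, against 0.144. Pdpn, podoplanin, had 1.08 and 2.38 in Macro_Mgl2 of suffix 1 and suffix 2, against 3.35 and 6.74, a log2 ratio of -1.63 (-1.84 to -1.42). Procr, the protein C receptor, had a log2 ratio of -1.71 and Nr1h3, the sterol receptor LXR alpha, -1.59, and Ctsk, cathepsin K, had 0.567 UMIs per 10000 in Macro_Mgl2 of suffix 1, against 1.60. Mgarp had -1.78 and Mmp9, a gelatinase, -1.35. Another 3 genes, members of the inflammatory list, were Tnfrsf9 with -1.59, Il1rn, the interleukin 1 receptor antagonist, with 4.43 against 10.4 UMIs per 10000 and -1.24, and Ptgs2, cyclooxygenase 2, with 10.1 against 22.5 and -1.16. Ecm1 had -1.28 and Klf4 -1.14. Il1b, with 104 UMIs per 10000 in Macro_Mgl2 against 149.5 in the pooled names, was not called at -0.52.

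Macrophage markers in Macro_Mgl2 were below their level in the pooled names at UMIs per 10000 but not per cell for 7 of 9, short of the 2-fold limit, and C1q lay between the levels of the other macrophage names at UMIs per 10000 but was highest in Macro_Mgl2 per cell. The 3 chains of complement C1q summed to 266 UMIs per 10000 in Macro_Mgl2 of suffix 1 and 261 in suffix 2. Macro_Maf held 430.1 and 422, Macro_Ccl12 408 and 311, and Macro_Vegfa 223 and 189. As UMIs per cell Macro_Mgl2 was first of all names, with 189 against 172 in Macro_Maf of suffix 1 and 177 against 152 in Macro_Maf of suffix 2. None of the 9 measured macrophage markers was called, and all 9 had a ratio below 1 at UMIs per 10000, with a median log2 of -0.42, whereas per cell 7 of 9 had a ratio above 1. Mrc1, the mannose receptor, had 5.84 and 4.46 UMIs per 10000 in Macro_Mgl2, against 8.80 and 7.01. Of the interferon-stimulated, antigen presentation, alternatively activated, T, NK, B, epithelial, fibroblast, endothelial and erythroid lists no member was called in suffix 1, and summed levels of the epithelial and fibroblast markers were 0.193 and 0.165, against 0.349 and 0.200. Some neutrophil genes were the exception. S100a8 and S100a9, the subunits of calprotectin, had 499.5 and 711 UMIs per 10000 in Macro_Mgl2 of suffix 1, against 179.5 and 251. They were the only 2 measured mature neutrophil markers with a ratio above 1, and Mmp9 of the same list was called lower. Without these 2 in the list and in the totals, the list summed to a log2 ratio of -0.18, with 4 members above 1. As UMIs per cell 8 members, these 2 included, had a ratio above 1. Lcn2, lipocalin 2, had 54.9 against 10.7, and Fcnb, the myeloid lectin ficolin B, had 0.605 against 0.0188, a log2 ratio of 5.01. Orm1, an acute-phase protein, had 0.451 against 0.0188, but in suffix 2 0.188 against 0.0976, an interval of -0.39 to 2.17 in log2.

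Much of the Fcnb and Orm1 signal lay in few cells. Cells were divided into ranges by their C1q level and by the share of S100a8 and S100a9 in their UMIs, with limits chosen after the values were seen, so these are ranges and not types. C1q-high cells, with 100 or more C1q UMIs per 10000 and under 40% of UMIs in calprotectin, were 177 of 256 in suffix 1 (69.1%, exact interval 63.1 to 74.7%) and 49 of 71 in suffix 2 (69.0%). C1q-low cells, below 20, were 42 (16.4%) and 17 (23.9%), and 18 and 2 cells lay between. Calprotectin-high cells, with 40% or more, were 19 (7.42%) and 3 (4.23%). Near the limits, 28 cells of suffix 1 had a C1q level between 50 and 200, 9 between 10 and 40, and 10 had a calprotectin share between 20 and 40%. Just inside and just outside the calprotectin limit the shares were 49.0 and 33.6%. Macro_Maf held 654 of 737 C1q-high cells (88.7%) and 0 calprotectin-high cells, and Macro_Vegfa 538 of 871 (61.8%) and 7.

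**Figure D3:**
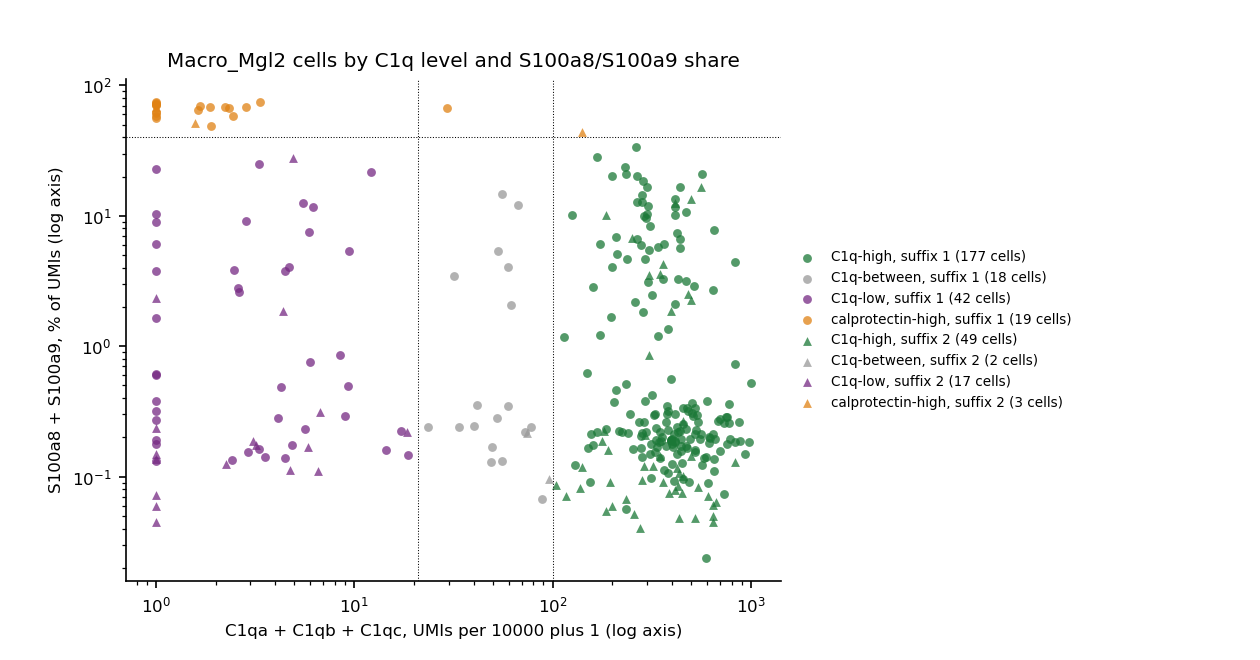
Each point is a Macro_Mgl2 cell, placed by C1qa, C1qb and C1qc UMIs per 10000 plus 1 (x, log axis) and by the percent of its UMIs in S100a8 and S100a9 (y, log axis), with circles for suffix 1 and triangles for suffix 2. Dotted lines are the limits of the ranges; most cells, 177 and 49, lie at the lower right, and 19 and 3 lie above 40%.

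Mitotic transcripts were present in all of these ranges. Every Macro_Mgl2 cell held a UMI of the mitotic lists, and the lowest level was 17.4 UMIs per 10000 in suffix 1 and 38.0 in suffix 2. Per cell the median mitotic level was 150.2 in C1q-high, 153 in C1q-between, 177 in C1q-low and 66.9 in calprotectin-high cells of suffix 1. With S100a8 and S100a9 taken out of the totals, the summed spindle list had 72.5 UMIs per 10000 in C1q-high, 84.7 in C1q-low and 97.9 in calprotectin-high cells, against 8.32 in neutrophils. Ube2c itself had 12.5 UMIs per 10000 in C1q-high, 12.6 in C1q-between, 11.6 in C1q-low and 10.4 in calprotectin-high cells, against 0.128 in neutrophils. Restricting both sides to C1q-high cells left the cell cycle difference in place. There 85 of 2744 genes were higher (3.1%) and 7 lower (0.255%), and 83 of the 96 genes called higher before and compared here were called again. The 13 not called again included Lcn2, with a log2 ratio of 0.09 among C1q-high cells, S100a9 with 0.11, S100a8 with 0.17, Mgst2 with -0.60 and Gca with 0.37, besides E2f2 with 1.14, Wdr76 with 1.40 and Phgdh with 1.23. Il1rn, Ptgs2, Ecm1, Klf4, Fabp4 and Nr1h3 were no longer called lower, with log2 ratios of -0.88, -0.57, -0.78, -0.83, -1.97 and -1.48. Leaving out only the calprotectin-high cells on both sides gave 105 of 2840 genes higher (3.7%) and 6 lower (0.211%).

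**Figure D4:**
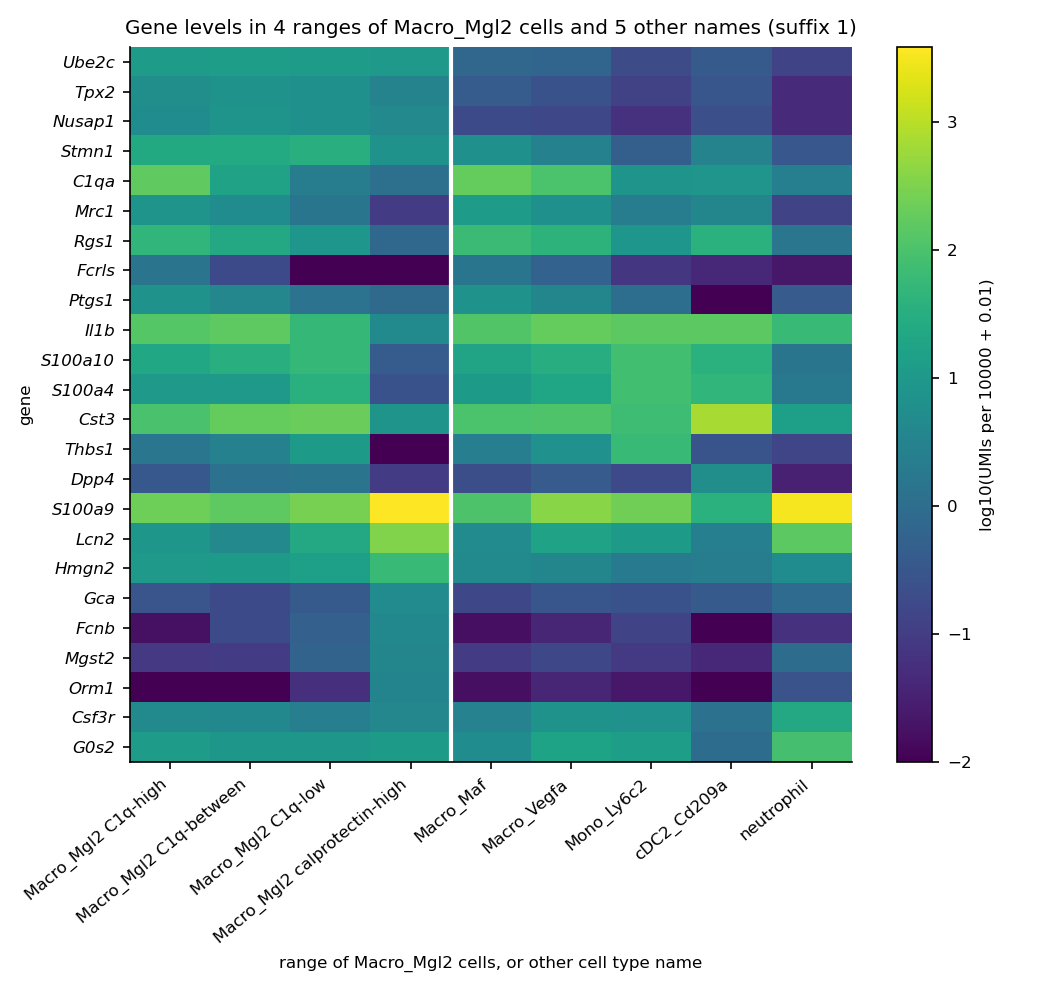
Levels of 24 genes as log10 of UMIs per 10000 plus 0.01 (colour), in the 4 ranges of Macro_Mgl2 cells (left of the white line) and 5 other names (right), suffix 1. Ube2c, Tpx2, Nusap1 and Stmn1 are bright in all 4 ranges, at 10.4 to 12.6 for Ube2c, while Mrc1, Rgs1 and Fcrls fade in C1q-low cells and Fcnb and Orm1 appear in calprotectin-high cells. C1qa and S100a9 were used to set the ranges.

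C1q-high cells held more of several macrophage transcripts than the other ranges. Of 2124 genes compared among the ranges, 30 were over 2-fold higher in C1q-high cells than in both C1q-low and calprotectin-high cells. These genes, and those that led the other ranges, were picked after their values were seen. Rgs1, a regulator of G protein signalling, had 48.1 UMIs per 10000 in C1q-high, 24.0 in C1q-between, 8.51 in C1q-low and 0.707 in calprotectin-high cells, beside 62.9 in Macro_Maf. Mrc1 had 7.78 in C1q-high, 5.23 in C1q-between and 0.0832 in calprotectin-high cells, beside 11.6 in Macro_Maf, and 33 UMIs in all in C1q-low cells, a log2 ratio of C1q-high over C1q-low cells of 2.37. Fcrls had 1.40 in C1q-high cells and 0 UMIs in C1q-low and calprotectin-high cells of suffix 1. Ptgs1, cyclooxygenase 1, had 7.11 in C1q-high and 1.36 in C1q-low cells. In suffix 2 Mrc1 had 5.90 in C1q-high and 0.882 in C1q-low cells, the same order.

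Several genes of monocytes and dendritic cells stood higher in C1q-low than in C1q-high cells. S100a4 had 34.5 UMIs per 10000 in C1q-low cells and 9.85 in C1q-high cells of suffix 1, and 48.0 and 6.10 in suffix 2, beside 78.9 in monocytes named Mono_Ly6c2 of suffix 1. Thbs1, thrombospondin 1, had 10.8 in C1q-low and 1.56 in C1q-high cells, beside 57.2 in Mono_Ly6c2. Cst3, cystatin C, which is abundant in dendritic cells, had 207 in C1q-low and 94.4 in C1q-high cells, beside 724 in cDC2_Cd209a cells, and Dpp4 had 1.41 and 0.331, beside 5.90. The 5 measured markers of type 2 dendritic cells summed to 4.96 UMIs per 10000 in C1q-low and 1.02 in C1q-high cells, beside 14.3 in cDC2_Cd209a. The 4 measured monocyte markers summed to 59.6 and 56.7. Whether other cell types contribute to C1q-low cells was not tested. Ifnb1, which also led this range, came mostly from 1 cell, with 117 of its 145 UMIs.

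Calprotectin-high cells combined neutrophil granule transcripts with mitotic ones. In suffix 1 the 19 cells were 7.42% of the name but 13.2% of its UMIs, with a median of 12804 UMIs per cell, against 1120 in neutrophils. Fcnb had 96 of its 110 Macro_Mgl2 UMIs in them, in 13 of 19 cells, and Orm1 81 of 82 UMIs, in 11 cells. A Fcnb UMI was found in 0.525% of neutrophils. Lcn2 had 345 UMIs per 10000 in calprotectin-high cells, against 151 in neutrophils, and Chil3, a chitinase-like protein, had a log2 ratio over neutrophils of 2.50 (2.35 to 2.65). Hmgn2, a nucleosome-binding protein, had 57.9, against 5.31 in neutrophils and 10.2 in C1q-high cells. Several genes of mature neutrophils ran the other way, S100a8 and S100a9 aside, since their share set this range. Csf3r, the G-CSF receptor, had 3.78 UMIs per 10000 in calprotectin-high cells against 23.0 in neutrophils, Cxcr2, a chemokine receptor, 3.16 against 11.3, and G0s2 10.8 against 88.3. Il1b had 4.53 against 60.1, and Mmp9 3.99 against 17.3. In suffix 2 the 3 cells gave the same directions for Lcn2, Fcnb, Csf3r, Cxcr2, G0s2 and Il1b, with 24 Fcnb UMIs in 3 of 3 cells and Csf3r at 2.49 against 20.9.

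Set against all neutrophils of suffix 1, calprotectin-high cells had 169 of 2198 genes higher (7.69%) and 147 lower (6.69%). All 9 spindle genes with enough UMIs were higher, as were 7 of 8 mitotic kinase and checkpoint genes, 6 of 7 centromere genes, 11 of 16 replication genes and 10 of 13 chromatin genes. Of these neutrophils, 3695 of 5712 (64.7%) were calprotectin-high themselves. Against those alone, 230 of 1957 genes were higher and 91 lower. There 9 of 9 spindle, 6 of 7 kinase and checkpoint, 7 of 7 centromere, 9 of 12 replication and 11 of 13 chromatin genes were higher. The gene levels above are set against all neutrophils. The 6 macrophage markers other than C1q summed to 0.541 UMIs per 10000 in calprotectin-high cells, against 1.25 in neutrophils, and to 45.3 in C1q-high cells. The calprotectin-high cells of suffix 1 thus went against the label. In suffix 2 the 3 cells held 8.62 UMIs per 10000 of these markers, against 1.74 in neutrophils. Of these 3 cells, 1 had 139 C1q UMIs per 10000, which is above the lower limit of the C1q-high range, and of their 77 Rgs1 UMIs 76 lay in 1 cell. For each S100a9 UMI, S100a8 had 0.679 UMIs in calprotectin-high and 0.736 in C1q-high cells, against 0.770 in neutrophils and 0.703 in B_cell. For each 1000 S100a9 UMIs, Lcn2 had 89.3 UMIs in calprotectin-high and 39.6 in C1q-high cells, against 45.7 in neutrophils and 39.5 in B_cell. Csf3r had 0.979 in calprotectin-high and 19.9 in C1q-high cells, against 6.96 in neutrophils. The part of free RNA and of doublets in these values was not tested.

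With the same cut on both counts, more Macro_Mgl2 cells were high for mitotic than for replication transcripts, but the lists are unlike in size and level. To compare cells of unequal depth each was thinned to 1000 UMIs. Of 253 Macro_Mgl2 cells of suffix 1, 98.4% had 3 or more mitotic UMIs, with a median of 14, against 39.0% of Macro_Maf, 22.6% of Macro_Vegfa, 62.9% of CD8_Tex and 2.79% of neutrophils. Without thinning the shares were 100% of Macro_Mgl2, 80.3% of Macro_Maf and 12.8% of neutrophils. For replication, 73.5% of Macro_Mgl2 cells had 3 or more UMIs, with a median of 5, against 44.1% of Macro_Maf, 70.2% of CD8_Tex and 4.56% of neutrophils. Taking 10 UMIs as the mark of a high count, 145 Macro_Mgl2 cells (57.3%) were high for mitotic transcripts alone, 56 (22.1%) for both, 6 (2.37%) for replication alone and 46 (18.2%) for neither. In Macro_Maf the cells high for replication alone were 52 of 703 (7.40%), and those high for mitotic transcripts alone were 6. CD8_Tex, another name rich in cycling cells, had 45 of 420 (10.7%) with mitotic transcripts alone and 45 (10.7%) with replication alone. The mitotic lists hold 45 measured genes and the replication list 29, and genes that mark the name, such as Ube2c, are mitotic. In Macro_Mgl2 the cut of 10 lies below the mitotic median of 14 and above the replication median of 5. The shares therefore compare names at 1 cut and do not give the phase of the cells.

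**Figure D5:**
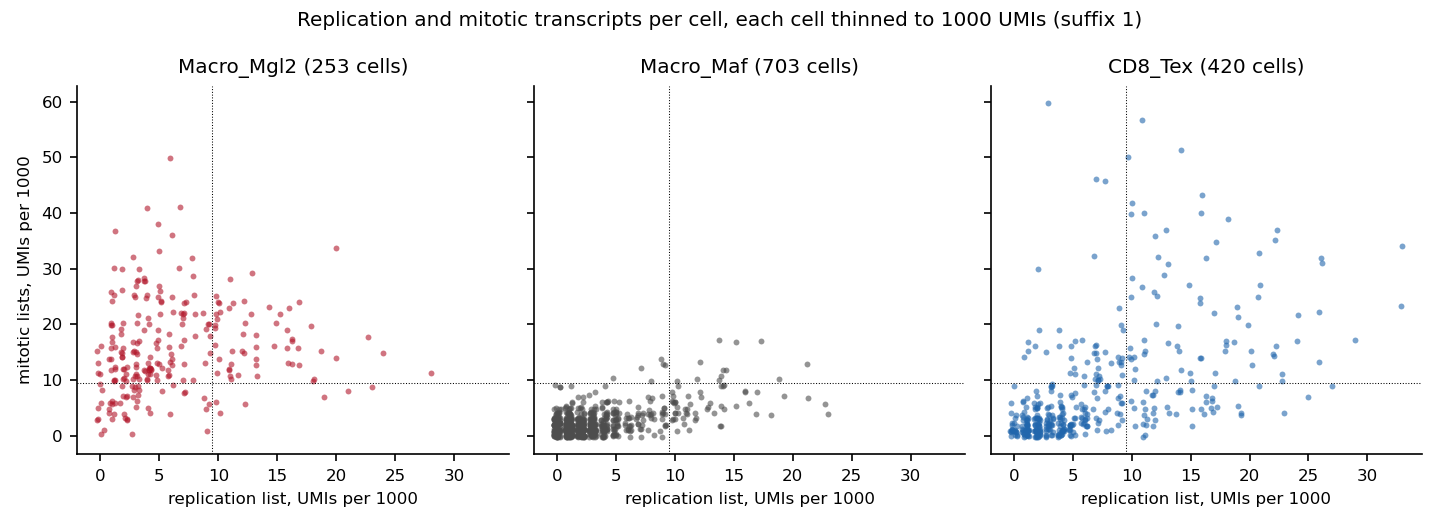
Each point is a cell of suffix 1 thinned to 1000 UMIs, with replication list UMIs on the x axis and mitotic list UMIs on the y axis, for 253 Macro_Mgl2, 703 Macro_Maf and 420 CD8_Tex cells, and points spread slightly to separate ties. Dotted lines mark counts of 10, the same cut for lists of unlike size and level. At the upper left lie 145 Macro_Mgl2 cells and at the lower right 6, whereas Macro_Maf has 6 at the upper left and 52 at the lower right.

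The cells of Macro_Mgl2 that were richest in replication transcripts had less Cdc20, but not less of the mitotic lists as a whole. In suffix 1 the 62 cells with 10 or more replication UMIs, counted in the thinned cells, had 24.7 Pcna UMIs per 10000 and 1.55 of Cdc20. The 17 cells with none had 1.48 of Pcna and 4.19 of Cdc20, and they also held less C1q, at 144 against 262, and more S100a8 and S100a9, at 4310 against 416. In suffix 2 the 14 cells with 10 or more had 28.4 of Pcna and 1.00 of Cdc20. Pcna is itself on the list used to divide the cells. Across the 256 cells, which share 1 suffix and differ in depth, Spearman's rho between mitotic and replication levels was 0.24. It was 0.18 in the 177 C1q-high cells.

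Over the 22 names of suffix 1 with 50 or more cells, genes whose levels closely followed the summed 4 markers were on cell cycle lists. Pearson's r of log2 levels was 0.927 for Smc2, 0.916 for Sgo2a, which protects centromeric cohesion, 0.915 for the kinetochore scaffold Knl1, 0.911 for Bub1b and for Ccna2, 0.909 for Tacc3, 0.907 for Mcm8, 0.903 for the condensin subunit Ncaph and 0.901 for Bub1. These names share a suffix and differ in depth, and no p is given.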

How the data were processed

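Per the labels, CD45+ PI- cells of Mif-depleted and wild-type 4T1 tumours (2 samples each) were sorted for 10x Genomics libraries. The submitters' processing notes name Cell Ranger, Seurat, GRCm38 and mm10, without roles or versions. The authors deposited UMI counts per gene and cell, with a name for each of 45781 barcodes. How names were given is not stated in the sources used here. The table held 4099 complete genes, of which 4063 matched GENCODE M21, and 1 incomplete last gene was left out. Comparisons of groups and the tests planned over samples were not made, because no source ties a suffix to a sample.

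UMIs were summed over the cells of a name within a suffix and scaled to 10000. Intervals (95%) were exact Poisson for levels, Clopper-Pearson for shares and conditional binomial for ratios. A gene with 50 or more UMIs over both sides was called when its interval lay beyond 2-fold. Named genes were the 15 highest and 15 lowest ratios of called genes of suffix 1 with the same sign in suffix 2 (12 were lower), all measured members of 33 lists, and the 4 markers. Likeness was over names with 50 or more cells. Thinning drew 1000 UMIs per cell without replacement. Members and lists were chosen with earlier results of these data known. Scripts were tested on simulated data. They ran in Python (3.11.15) with scipy (1.17.1) for intervals, pandas (2.3.3) and numpy (2.4.6) for sums, and matplotlib (3.10.9) for plots. Alternatives changed the suffix, the scaling, the depth of cells, the minimum of UMIs, the fold limit and the cells counted. Some items are not reported here.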

Additional observations from a re-analysis of the deposited data

How the results depend on the processing

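No paired analysis was possible because the count columns are tied to no sample. The log2 ratios of all 4 markers kept their direction and stayed beyond 2-fold under every alternative run, at 4.12 to 5.07 for Tpx2, 4.22 to 5.91 for Nusap1, 3.94 to 5.06 for Ube2c and 2.38 to 3.34 for Stmn1, and no value beyond 2-fold changed its sign. Against the 3 macrophage names, 103 genes were higher, against 425 as UMIs per cell, 56 in cells thinned to 1000 UMIs and 157 at 1.5-fold. Lower were 12, against 0 as UMIs per cell, 63 at 1.5-fold, 7 among C1q-high cells and 6 without calprotectin-high cells, the last 2 settings being chosen after seeing the data. Against all other cells 137 genes were higher (3.9%) and 205 lower (5.83%). Higher were 71 in suffix 2, 2471 as UMIs per cell, 223 without the 10% of cells with most UMIs and 369 at 1.5-fold. Lower were 118 in suffix 2, 40 as UMIs per cell, 56 in thinned cells and 311 at 1.5-fold. The replication list summed to a log2 ratio of 1.00 (0.96 to 1.03), which did not clear 2-fold, but did at 1.10 in suffix 2, 1.12 without S100a8 and S100a9 in the total, 1.95 as UMIs per cell, 1.22 thinned, 1.20 without the deepest 10%, 1.11 without calprotectin-high cells and 1.14 as a mean over cells. As UMIs per cell chromatin genes reached 1.83, against 0.88, and cell cycle inhibitors turned to 0.77, against -0.18. The suffix 2 share of Macro_Mgl2, 1.91% of annotated barcodes, was 2.20% of those with counts. Cells with 3 or more mitotic UMIs were 89.0% at 500 UMIs and 100% without thinning, and with 3 or more replication UMIs 43.9% and 98.8%. The median over all genes was 0.03 without S100a8 and S100a9 in the total. The causes of these changes were not tested. Depth limits genes with few UMIs: of the 103 higher genes, 70 had enough UMIs in suffix 2.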

Other observations

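Of all annotated barcodes, Macro_Mgl2 was 256 of 13162 in suffix 1 (1.95%, exact interval 1.72 to 2.20%), 229 of 11961 in suffix 2 (1.91%, 1.68 to 2.18%), 318 of 9317 in suffix 3 (3.41%, 3.05 to 3.80%) and 392 of 11341 in suffix 4 (3.46%, 3.13 to 3.81%). As a share of the cells named Macro_Mgl2, Macro_Maf, Macro_Vegfa or Macro_Ccl12 it was 12.8%, 10.2%, 8.63% and 10.3%, so the order of the suffixes differed between the denominators. The suffixes are tied to no sample, and the intervals cover counting error only.

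Cpa3, a carboxypeptidase of mast cells, had 38 UMIs in Macro_Mgl2 cells of suffix 1, of which 37 lay in 2 C1q-low cells and 1 in a C1q-high cell.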
